A study of Mus musculus with 9 samples.

Results

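Metabotropic glutamate receptors are G protein-coupled receptors that answer synaptic glutamate more slowly than the ion channel receptors do. They form 3 groups by sequence and coupling. Group I receptors sit mainly in the postsynaptic membrane and act through Gq and phospholipase C, while group II and group III receptors act through Gi/o proteins, lower adenylyl cyclase activity and mostly restrain transmitter release from presynaptic terminals. In the hippocampus the family shapes long-term depression and release at the mossy fibre and Schaffer collateral synapses, and in rodents drugs that block the receptor encoded by Grm5 lower alcohol drinking. The genes described here are 6 listed members out of 14779 genes in the deposited table: Grm5 of group I, Grm2 and Grm3 of group II, and Grm4, Grm7 and Grm8 of group III. They are listed by name and were found through their Ensembl identifiers, a rule with no threshold on their values, and all 6 passed the filter on low counts that left 14696 genes for testing.

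The 9 libraries were made from polyadenylated RNA of the dissected mouse hippocampus, with 3 mice per group. Mice of the CIE+IL17 Ab group had CIE, the usual short form for chronic intermittent ethanol, and an antibody against interleukin 17A, a cytokine of the immune system. Mice of the CIE+IgG group had the same ethanol exposure with IgG, the control antibody, and mice of the Air+IgG group were kept in air with IgG. The antibody was not given to air-kept mice in these samples, and the labels used here do not state strain, sex, age or dose.

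Library totals ran between 7372658 and 11894628 estimated counts. The libraries do not all hold the same tissue mix by their marker genes, which bears on every comparison with the antibody group. The summed level of 13 tested genes of thalamus and habenula, regions next to the hippocampus, ran between 1390 and 2400 CPM (each count relative to the library total after TMM scaling, in parts per 10⁶) in CIE+IL17 Ab, between 310 and 595 CPM in CIE+IgG and between 250 and 353 CPM in Air+IgG. That of 10 genes of CA1 pyramidal neurons ran between 203 and 431, 665 and 1100, and 1010 and 1090 CPM in the same 3 groups. The hippocampal list itself, 10 genes with Prox1 and Zbtb20 among them, was detected in every library, at 661 to 1760, 1760 to 2550 and 1900 to 3470 CPM, and no tested marker of these lists was at 0 throughout a group. The 13 striatal genes summed to 895 CPM in CIE+IL17 Ab replicate 3 and 1400 CPM in CIE+IgG replicate 3, and to between 266 and 306 CPM in the other 7 libraries. The 7 choroid plexus genes summed to 65.9 CPM in CIE+IL17 Ab replicate 1 and 509 CPM in Air+IgG replicate 2, and to between 2370 and 7090 CPM in the other libraries. Sums of 10 oligodendrocyte genes were 6240 to 7590, 4670 to 7390 and 4100 to 4660 CPM in CIE+IL17 Ab, CIE+IgG and Air+IgG. In the same groups 8 microglia genes summed to 281 to 293, 352 to 367 and 333 to 389 CPM. For 10 interneuron genes the sums overlapped, at 623 to 1270, 1010 to 1300 and 955 to 1130 CPM. CIE+IL17 Ab replicate 1 and Air+IgG replicate 2 held 495056 and 593544 counts of Lars2, a mitochondrial leucyl-tRNA synthetase, where the other libraries held at most 2167. In bulk RNA, fewer cells of a type and less RNA per cell cannot be told apart.

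On GRCm38, Grm5 (ENSMUSG00000049583) spans chr7:87584168-88134907 on the + strand, Grm2 (ENSMUSG00000023192) chr9:106643095-106656082, Grm3 (ENSMUSG00000003974) chr5:9485541-9725170 and Grm4 (ENSMUSG00000063239) chr17:27422387-27521403 on the - strand. Grm7 (ENSMUSG00000056755) and Grm8 (ENSMUSG00000024211) share chromosome 6, at chr6:110645581-111567230 on the + strand and chr6:27275119-28135178 on the - strand.

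The receptors differ in their intracellular tails, which bind different scaffold proteins. The last 30 coding bases of 1 annotated principal transcript of each gene (GENCODE M21 on GRCm38, 5′ to 3′ on the coding strand) are shown to identify the members. Capitals mark the last 3 codons before the stop codon, the position where some tails of this family meet PDZ domain proteins such as Pick1 and Tamalin. The capitals give a position only, and whether each ending shown, that of Grm8 included, binds such a protein was not tested.
Grm5, chr7:88130837-88130866, + strand: agagattacacgcagagttctTCATCGTTG
Grm2, chr9:106645021-106645050, - strand: gaggtggtagactcaacaacaTCGTCGCTT
Grm3, chr5:9485771-9485800, - strand: gaagtcctggactccaccaccTCATCTCTG
Grm4, chr17:27426787-27426816, - strand: acctacgtcacttacaccaacCATGCAATC
Grm7, chr6:111566035-111566064, + strand: aagtatgtcagttataataacCTGGTTATC
Grm8, chr6:27285688-27285717, - strand: tttcagatggtcaagagcgggAGCACTTCC
Other annotated transcripts of some members end differently, and the deposited counts are per gene, so they do not say which tail is made.

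Group I receptors also bind Homer proteins, which tie them to the postsynaptic density and to calcium stores. Their Homer ligand can be searched as a run of 5 codons in frame on the coding strand, CCN and CCN, then 2 codons of any letters, then TTT or TTC. In the last 300 coding bases it occurred in 1 of the 6 members, Grm5, and in 206 of 14094 protein-coding genes of the table with such a window (1.46%). The Grm5 match is shown within 75 bases of coding exon, with the pattern in capitals.
Grm5, chr7:88130693-88130767, + strand: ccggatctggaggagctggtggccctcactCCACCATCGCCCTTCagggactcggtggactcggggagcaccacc
A match of letters is a description of the sequence and not a measured interaction.

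The first question was how much of each receptor transcript these libraries held. To set genes against each other, CPM was divided by the merged exon length of the gene in kilobases. On this per-length scale Grm5 had the highest level in Air+IgG, at 56.3 ± 0.979 CPM per kilobase (SD, n = 3), followed by Grm3 with 40.2 ± 6.52 and Grm7 with 21.7 ± 0.478. Grm2 had 11.4 ± 1.87 CPM per kilobase, and Grm8 and Grm4 had 2.58 ± 0.989 and 2.44 ± 0.803. Neighbours in this order did not overlap between libraries, except Grm8 and Grm4, which did.

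In CIE+IgG the per-length order was the same for the first 4 places, with Grm5 at 55.8 ± 2.64 CPM per kilobase, Grm3 at 40.7 ± 6.41, Grm7 at 21 ± 0.423 and Grm2 at 7.46 ± 4.61. Grm4 and Grm8 had 3.59 ± 1.61 and 2.82 ± 0.544 CPM per kilobase there, and Grm2 overlapped with Grm4, and Grm4 with Grm8. In CIE+IL17 Ab, Grm3 and Grm5 changed places, and so did Grm4 and Grm2, relative to CIE+IgG. Grm3 stood first at 39.2 ± 8.55 CPM per kilobase and overlapped with Grm5 at 35.4 ± 8.02, Grm7 came next at 21.7 ± 0.455, and Grm4 followed at 10.9 ± 2.87, overlapping with Grm2 at 6.94 ± 3.31. Grm8 had 4.42 ± 0.597 CPM per kilobase and overlapped with Grm2. With the length of the longest transcript in place of merged exons, Grm5 was first in all 3 groups, Grm2 was last in CIE+IL17 Ab and Grm4 was last in CIE+IgG, so these places depend on the length used.

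Expressed as a share of the summed per-length level of the 6 genes, Grm5 made up 29.7% ± 4.97 in CIE+IL17 Ab, 42.6% ± 3.32 in CIE+IgG and 41.9% ± 2.15 in Air+IgG (SD, n = 3 each). Grm4 made up 9.24% ± 2.87, 2.70% ± 1.10 and 1.80% ± 0.551 in the same groups. For both genes every CIE+IL17 Ab library lay outside the range of the other 6. Shares do not depend on scaling between libraries, though they are tied to each other, and they were not tested.

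**Figure D1:**
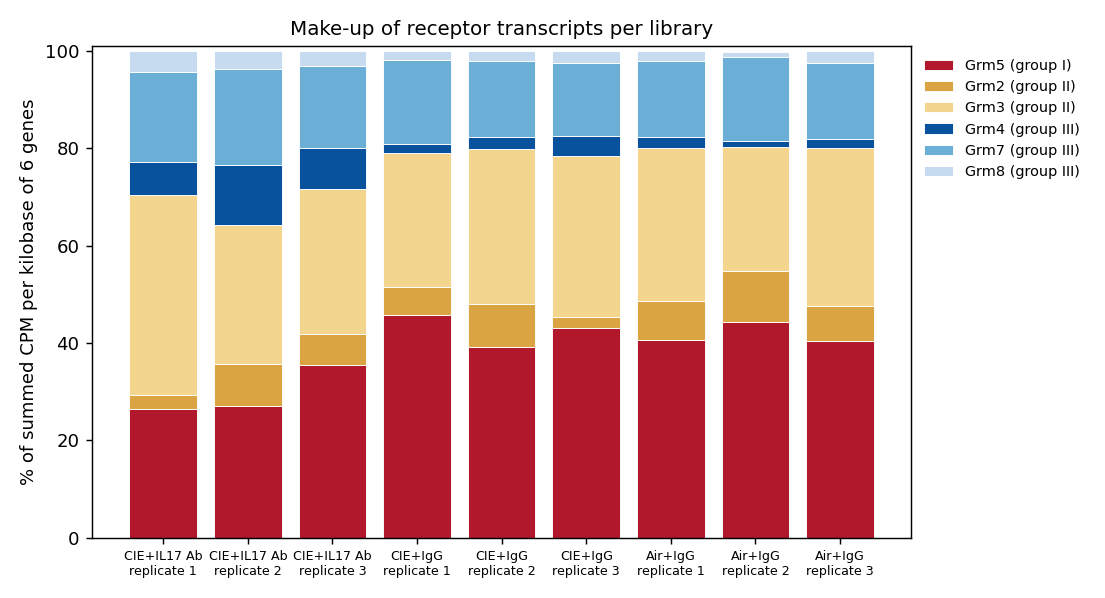
Stacked bars give each gene's percentage of the summed CPM per kilobase of the 6 receptor genes in each library, from group I at the bottom to group III at the top. Grm5 takes 26.5% to 35.4% in the CIE+IL17 Ab libraries and 39.1% to 45.7% in the other 6, and Grm4 takes 6.85% to 12.4% against at most 3.93%.

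Grm5, the group I member, encodes the main postsynaptic metabotropic receptor of the forebrain. Its level was 321, 310 and 457 CPM in the CIE+IL17 Ab libraries, 568, 547 and 601 CPM in CIE+IgG, and 565, 584 and 581 CPM in Air+IgG. All 3 antibody libraries were below the other 6, and the CIE+IgG and Air+IgG libraries overlapped within a narrow range. CA1 genes, like Grm5, were lower in the antibody libraries than in the other 6. Their scores (mean deviation in log2 CPM from the average of all libraries, over the 10 genes) were -1.92, -1.96 and -0.57 in CIE+IL17 Ab. They were 0.55, 1.04 and 0.19 in CIE+IgG, and 0.94, 0.88 and 0.84 in Air+IgG. Within CIE+IgG and within Air+IgG, the library with the least Grm5 had the highest CA1 score. CIE+IL17 Ab replicate 3 had the highest Grm5 and the highest CA1 score of its group, whereas CIE+IgG replicate 3 had the highest Grm5 and the lowest CA1 score of its group. These replicates were also the 2 libraries with high striatum scores, 1.68 in CIE+IL17 Ab and 2.28 in CIE+IgG, where all other libraries were at -0.03 or lower. The part of CA1 and striatal content in the Grm5 values was not tested. Grm5 fell in CIE+IL17 Ab against CIE+IgG, by 0.66 on the log2 scale with a standard error of 0.14 (edgeR quasi-likelihood test, adjusted p = 0.0468). It also fell against Air+IgG, with a log2 fold change of -0.67 and a standard error of 0.14 (adjusted p = 0.0227). Between CIE+IgG and Air+IgG the log2 fold change was -0.01 with a standard error of 0.14 (adjusted p = 1).

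The libraries carry label numbers in 2 ranges, which are not explained and could be batches, and Grm5 was lower in the antibody group in both. In the 3 libraries numbered 37 to 39 Grm5 had 310 CPM in CIE+IL17 Ab, 601 in CIE+IgG and 581 in Air+IgG. The other 6 libraries, numbered 54 to 60, gave a log2 fold change of -0.52 against CIE+IgG and -0.56 against Air+IgG, where it did not pass (adjusted p = 0.284 and 0.207). The call against CIE+IgG was near the threshold. It held without CIE+IL17 Ab replicate 3 (log2 fold change -0.86, adjusted p = 0.00307) and was lost without any one of the other 8 libraries, that is CIE+IL17 Ab replicates 1 and 2, all of CIE+IgG and all of Air+IgG, with adjusted p between 0.0654 and 0.189. In those 8 settings 0 to 715 of all genes were called, beside 468 with all libraries. Against Air+IgG, the Grm5 call failed when CIE+IL17 Ab replicate 2 was left out (0.0848). It likewise failed for Air+IgG replicates 1, 2 and 3 (0.0648, 0.0697 and 0.0691). There 0 to 478 of all genes were called, beside 1990 with all libraries. Over all alternatives the adjusted p ran between 0.000761 and 0.284 against CIE+IgG, and between 0.000285 and 0.207 against Air+IgG, and every log2 fold change lay between -0.88 and -0.52.

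**Figure D2:**
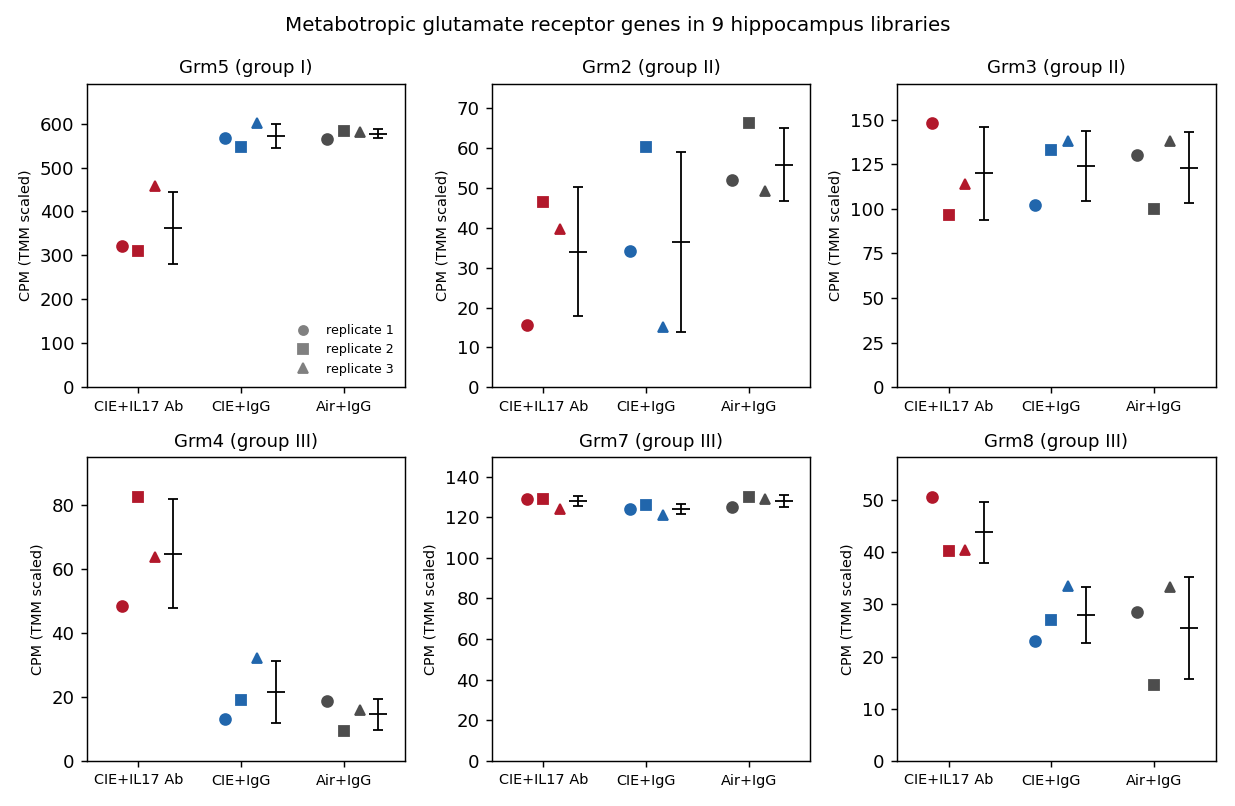
Each point is 1 library (CPM, linear axis from 0, marker shape by replicate number), and the black bar beside each group is its mean ± SD of 3 libraries. Grm5 is lower and Grm4 and Grm8 are higher in the 3 CIE+IL17 Ab libraries, Grm7 is level, and Grm2 has low values in CIE+IL17 Ab replicate 1 and CIE+IgG replicate 3.

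Grm2, of group II, encodes a presynaptic receptor found on mossy fibre terminals of dentate granule cells. It had 15.7, 46.5 and 39.8 CPM in CIE+IL17 Ab, 34.2, 60.2 and 15.2 CPM in CIE+IgG, and 52.1, 66.3 and 49.2 CPM in Air+IgG. The 3 Air+IgG libraries were above all antibody libraries, while CIE+IgG spread from the bottom to near the top of the whole range. Grm2 did not pass in any comparison, with log2 fold changes of -0.08 for CIE+IL17 Ab against CIE+IgG (standard error 0.50, adjusted p = 0.944), -0.70 for CIE+IL17 Ab against Air+IgG (0.50, adjusted p = 0.372) and -0.62 for CIE+IgG against Air+IgG (0.50, adjusted p = 1). Values without single libraries ran between -0.46 and 0.47, -1 and -0.37, and -1.18 and -0.24 in these comparisons. The lowest value of -1.18 came without CIE+IgG replicate 2.

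The libraries with the least Grm2 also had marker scores away from their groups. CIE+IL17 Ab replicate 1 had a dentate granule cell score of -1.81, where the other antibody libraries had -0.59 and 0.12. CIE+IgG replicate 3 had a dentate score of -0.21, where the other CIE+IgG libraries had 0.36 and 0.64, and its striatum score was 2.28, against -0.48 and -1.02. Other libraries went the other way. CIE+IL17 Ab replicate 2 had a lower dentate score than CIE+IgG replicate 3, but 46.5 CPM of Grm2 against 15.2. CIE+IL17 Ab replicate 3 had a striatum score of 1.68 and 39.8 CPM of Grm2. The part of dentate and striatal content in the Grm2 values was not tested.

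Grm3, the other group II gene, encodes a receptor of neurons and of astrocytes. It had 148, 96.8 and 114 CPM in CIE+IL17 Ab, 102, 133 and 138 CPM in CIE+IgG, and 130, 100 and 138 CPM in Air+IgG. The 3 groups overlapped. The log2 fold changes were -0.06, -0.04 and 0.02 for CIE+IL17 Ab against CIE+IgG, CIE+IL17 Ab against Air+IgG and CIE+IgG against Air+IgG, each with a standard error of 0.19. Scores of 10 astrocyte genes ran between -0.05 and 0.24, -0.08 and 0, and -0.06 and 0.01 in CIE+IL17 Ab, CIE+IgG and Air+IgG. Their summed level ran between 4730 and 5800, 6490 and 7340, and 7250 and 7550 CPM. Most of this sum was 1 gene, Slc1a2, with a mean of 3670, 5180 and 5770 CPM in the same groups. The median log2 fold change of the 10 genes in CIE+IL17 Ab was 0.29 against CIE+IgG and 0.24 against Air+IgG.

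Of the group III receptors, Grm4 is best known from cerebellar granule cells and is also made in thalamic neurons. Its level was 48.4, 82.6 and 63.7 CPM in CIE+IL17 Ab, 13.2, 19.1 and 32.1 CPM in CIE+IgG, and 18.6, 9.28 and 15.8 CPM in Air+IgG. The antibody libraries lay above all others, and CIE+IgG and Air+IgG overlapped. Grm4 rose in CIE+IL17 Ab against Air+IgG, with a log2 fold change of 2.15 and a standard error of 0.37, a ratio of 4.43 (adjusted p = 0.0141). Against CIE+IgG the log2 fold change was 1.60 with a standard error of 0.36, and the adjusted p of 0.0528 missed the threshold of 0.05. For CIE+IgG against Air+IgG it was 0.55 with a standard error of 0.37 (adjusted p = 1).

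The Grm4 difference from CIE+IgG lay so close to the threshold that several settings moved it across. It passed in DESeq2 (adjusted p = 0.000429), in limma-voom (0.0422), with a stricter filter (0.0499), with a term for the label numbers (0.0273) and without CIE+IgG replicate 3 (log2 fold change 2.01, 0.0302), in a range from 0.000429 to 0.195 over all alternatives. Against Air+IgG Grm4 no longer passed once CIE+IL17 Ab replicate 2 (0.0572), Air+IgG replicate 2 (0.0513) or Air+IgG replicate 3 (0.0548) was left out, nor in label numbers 54 to 60 (log2 fold change 1.99, 0.121), in a range from 2.83e-07 to 0.121. The value of 0.55 for CIE+IgG against Air+IgG was 0.13 without CIE+IgG replicate 3. In the libraries numbered 37 to 39 Grm4 had 82.6 CPM in CIE+IL17 Ab, 32.1 in CIE+IgG and 15.8 in Air+IgG.

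Thalamus and habenula genes moved with Grm4. Their scores were 1.69, 2.48 and 1.85 in CIE+IL17 Ab, -1.03, -1.15 and -0.60 in CIE+IgG, and -0.96, -1.34 and -0.95 in Air+IgG. Within CIE+IL17 Ab and within CIE+IgG the library with the most Grm4 also had the highest score, and Air+IgG replicate 2 had the lowest value of both. Of 13 tested genes on that list, 10 rose against CIE+IgG and 12 against Air+IgG. Their part in the Grm4 values was not tested. Of the 10 CA1 genes, 5 fell against CIE+IgG and 7 against Air+IgG. On the list of cerebellar granule cells, the cell type known for Grm4, 5 of 7 genes were in the table, 0 of them passed in either comparison, and the summed level was 40.2 to 84.7 CPM in CIE+IL17 Ab, 13.9 to 59.6 CPM in CIE+IgG and 13.9 to 70.4 CPM in Air+IgG. The antibody and the tissue mix cannot be told apart in these groups.

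Grm7 encodes a receptor of the presynaptic active zone with a low affinity for glutamate. It had 129, 129 and 124 CPM in CIE+IL17 Ab, 124, 126 and 121 CPM in CIE+IgG, and 125, 130 and 129 CPM in Air+IgG. No library stood apart, and the highest was 1.07 times the lowest. The log2 fold changes were 0.04, 0.00 and -0.05 for CIE+IL17 Ab against CIE+IgG, CIE+IL17 Ab against Air+IgG and CIE+IgG against Air+IgG, each with a standard error of 0.07.

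Grm8, a presynaptic receptor found in the terminal zones of the perforant path, had 50.6, 40.2 and 40.5 CPM in CIE+IL17 Ab, 23.0, 27.0 and 33.6 CPM in CIE+IgG, and 28.6, 14.5 and 33.3 CPM in Air+IgG. The antibody libraries were above the other 6. The log2 fold change was 0.65 against CIE+IgG with a standard error of 0.28 (adjusted p = 0.211) and 0.77 against Air+IgG with a standard error of 0.28 (adjusted p = 0.0971), so neither passed. DESeq2 called Grm8 against Air+IgG (adjusted p = 0.0411, with 0.0411 to 0.194 over all alternatives), and without Air+IgG replicate 2 the value was 0.49 (0.153), and 0.38 (0.182) without both libraries rich in Lars2. For CIE+IgG against Air+IgG it was 0.12 with a standard error of 0.28, and -0.16 without Air+IgG replicate 2.

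**Figure D3:**
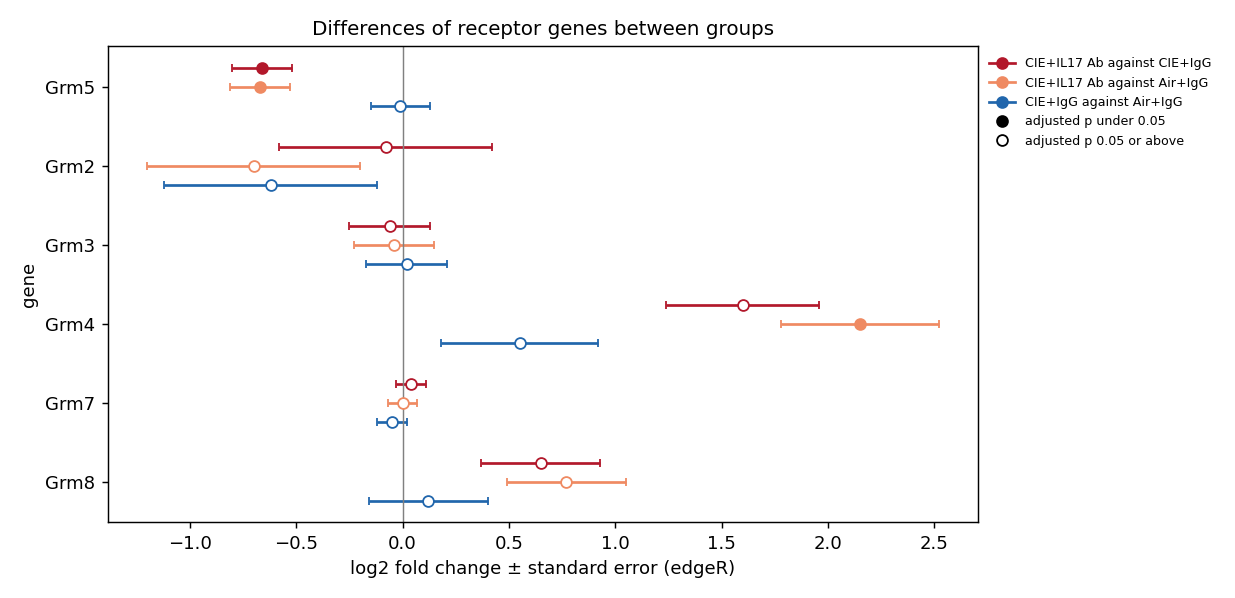
Log2 fold changes of the 6 genes (edgeR, points) with 1 standard error to each side, for the 3 comparisons, with filled points where the adjusted p was under 0.05. Grm5 is filled at -0.66 and -0.67 and Grm4 at 2.15, and the points for CIE+IgG against Air+IgG are all open.

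Counted together, 1 of the 6 receptor genes passed in CIE+IL17 Ab against CIE+IgG (Grm5, lower), where 3.18% of all tested genes did, 1.78% higher and 1.41% lower. In CIE+IL17 Ab against Air+IgG 2 of 6 passed (Grm4 higher, Grm5 lower), where 13.5% of all genes did, 6.83% higher and 6.71% lower. At an unadjusted p under 0.05 the members were Grm4, Grm5 and Grm8 in both, 3 of 6 beside 22.3% and 32% of all genes. Libraries of the groups did not overlap for Grm4, Grm5 and Grm8 against CIE+IgG, 3 of 6 beside 25.9% of all genes, and for these and Grm2 against Air+IgG, 4 of 6 beside 35.3%. With 6 members, these counts are a description. Between CIE+IgG and Air+IgG 0 of 6 passed in edgeR, DESeq2 and limma-voom, and 0 had an unadjusted p under 0.05 in any of these tools. Of all genes 0% passed there in edgeR, 2.76% had an unadjusted p under 0.05, and 9.44% had no overlap, against 0 of the 6. The comparisons with the antibody group share its libraries and are not independent of each other.

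The genes around the receptors were taken from 6 lists by role, with 85 genes in all, each of which was tested. These lists were chosen with earlier results of these data known. Their shares of called genes, here and below, are therefore a description and not a test of the lists. In CIE+IL17 Ab against CIE+IgG 3 of them rose and 5 fell, 9.41% beside 3.18% of all genes. Against Air+IgG 7 rose and 19 fell, 30.6% beside 13.5%. Median log2 fold changes were -0.14 and -0.17, beside 0.015 and 0.012 for all genes. Both counts changed when single libraries were left out, and so did those of all genes. Against CIE+IgG, the 8 calls became 4, 0 and 23 on leaving out replicates 1, 2 and 3 of CIE+IL17 Ab, 0, 0 and 13 on leaving out those of CIE+IgG, and 0, 4 and 0 on leaving out those of Air+IgG. Against Air+IgG, the 26 calls became 3 on leaving out replicate 2 of CIE+IL17 Ab, 14 on leaving out replicate 1 of CIE+IgG, and 6, 4 and 0 on leaving out replicates 1, 2 and 3 of Air+IgG. Of all genes, the 468 calls against CIE+IgG became 348, 19 and 1313 without replicates 1, 2 and 3 of CIE+IL17 Ab. They became 0, 7 and 715 without those of CIE+IgG, and 22, 223 and 18 without those of Air+IgG. The 1990 calls against Air+IgG became 218 without replicate 2 of CIE+IL17 Ab and 1122 without replicate 1 of CIE+IgG. They became 478, 336 and 0 without replicates 1, 2 and 3 of Air+IgG. Between CIE+IgG and Air+IgG 0 of 85 passed in edgeR, 0 in DESeq2 and 0 in limma-voom, with 2 at an unadjusted p under 0.05 in edgeR.

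The Gq and phospholipase C arm, through which Grm5 signals, held calls in both directions. Plcb1, the phospholipase C isoform of hippocampal pyramidal cells, fell to 196 ± 52.2 CPM in CIE+IL17 Ab (SD, n = 3 here and for each group below), against 367 ± 9.98 in CIE+IgG and 396 ± 26 in Air+IgG, a log2 fold change of -0.91 (adjusted p = 0.0326) and -1.01 (0.0127). Prkcb, a protein kinase C, fell by 0.90 and 0.94 on the log2 scale in the same comparisons (0.0394 and 0.0161). Plcb4, the isoform of thalamic and cerebellar neurons, rose to 272 ± 72.1 CPM in CIE+IL17 Ab, against 73.1 ± 30.1 in CIE+IgG and 47.8 ± 11.9 in Air+IgG, a log2 fold change of 1.89 (0.0326) and 2.5 (0.0105).

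Thus 1 of 16 genes of this arm rose and 2 fell against CIE+IgG (18.8% beside 3.18% of all genes), with a median log2 fold change of -0.42. Against Air+IgG 2 rose and 6 fell (50% beside 13.5%), with a median of -0.52. The 4 further falls were Gnaq, the Gq alpha subunit (-0.60), Prkca (-1.34), and the channels Trpc1 (-0.43) and Trpc5 (-0.99).

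Among 15 scaffolds and partners, Homer1 was the single gene that passed against CIE+IgG (6.67% beside 3.18% of all genes). It had 76.6, 77.6 and 121 CPM in CIE+IL17 Ab, 165, 180 and 190 CPM in CIE+IgG, and 165, 198 and 190 CPM in Air+IgG, and the antibody libraries lay below the other 6. Homer1 fell by 0.96 on the log2 scale with a standard error of 0.17 (adjusted p = 0.0327) against CIE+IgG, and by 1.01 against Air+IgG (0.0135). Homer3 (-1.58) and Dlgap1 (-1.18), scaffolds of the postsynaptic density, fell against Air+IgG too. Of this list 20% passed there, beside 13.5% of all genes. Homer1 makes a long protein and a short one induced by activity, which gene counts do not separate.

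Homer1 was also among the 3 genes whose log2 CPM over the 9 libraries was most like that of Grm5. Pearson's r with Grm5 was 0.988 for Homer1, 0.990 for Srr, the serine racemase that makes D-serine, and 0.987 for Tsnax, and 0.934, 0.953 and 0.928 after group means were taken out. These are descriptions over 9 libraries whose tissue mix differs, and its part in these values was not tested. The 3 genes were picked for the highest r of all tested genes, so high values follow in part from the picking. Per library, Homer1 had 0.239, 0.251 and 0.265 CPM for each CPM of Grm5 in CIE+IL17 Ab, 0.291, 0.328 and 0.316 in CIE+IgG, and 0.292, 0.339 and 0.326 in Air+IgG. This ratio was lower in all 3 antibody libraries than in the other 6, which in part restates that Homer1 fell further than Grm5. The ratio was not tested.

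Of 18 genes of the Gi/o and adenylyl cyclase arm, used by group II and III receptors, 0 passed in edgeR between CIE+IL17 Ab and CIE+IgG. Of all genes 3.18% did. The smallest edgeR p was that of Adcy8, a calcium-stimulated adenylyl cyclase, with a log2 fold change of 1.17 (adjusted p = 0.0577). Against Air+IgG 4 fell and 0 rose (22.2% beside 13.5% of all genes). The falls were the cyclases Adcy2 (-0.90) and Adcy9 (-1.10), the channel subunit Kcnj3 (-0.93) and the G protein subunit Gnaz (-0.33). Of 11 genes that desensitise the receptors, 0 passed against CIE+IgG, where Rgs8 had 0.52 (0.0949). Against Air+IgG 1 rose, Rgs8 (0.66), which is 9.09% of the list and below the 13.5% of all genes.

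Among 14 genes of metabotropic long-term depression, 0 rose and 2 fell against CIE+IgG (14.3% beside 3.18% of all genes). Against Air+IgG 1 rose and 3 fell (28.6% beside 13.5%). Arc, which drives removal of AMPA receptors and is switched on by activity, had 29.9, 28.2 and 55.8 CPM in CIE+IL17 Ab, 106, 183 and 111 CPM in CIE+IgG, and 103, 222 and 132 CPM in Air+IgG. Its log2 fold change was -1.81 against CIE+IgG (adjusted p = 0.046) and -2.01 against Air+IgG (0.0176). Against Air+IgG Cyfip1 also fell (-0.47) and Nptx2, a pentraxin that gathers AMPA receptors, rose (0.78).

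Among 11 genes of glutamate and NAAG supply, 2 rose and 0 fell against CIE+IgG (18.2% beside 3.18% of all genes). Against Air+IgG 3 rose and 3 fell (54.5% beside 13.5%). NAAG is a dipeptide transmitter that acts on the receptor encoded by Grm3. Slc17a6, the vesicular glutamate transporter of thalamic neurons and on the thalamus and habenula list as well, had 483, 390 and 166 CPM in CIE+IL17 Ab, 28.0, 47.6 and 50.8 CPM in CIE+IgG, and 37.6, 19 and 41.7 CPM in Air+IgG, a log2 fold change of 3.04 (adjusted p = 0.0242) and 3.39 (0.0105). Rimkla, a NAAG synthetase, rose by 1.17 (0.0465) and 1.23 (0.0208) on the log2 scale. Against Air+IgG Folh1, which cleaves NAAG, also rose (0.87), and the glutamate transporters Slc1a1 (-0.64) and Slc1a2 (-0.65) fell.

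**Figure D4:**
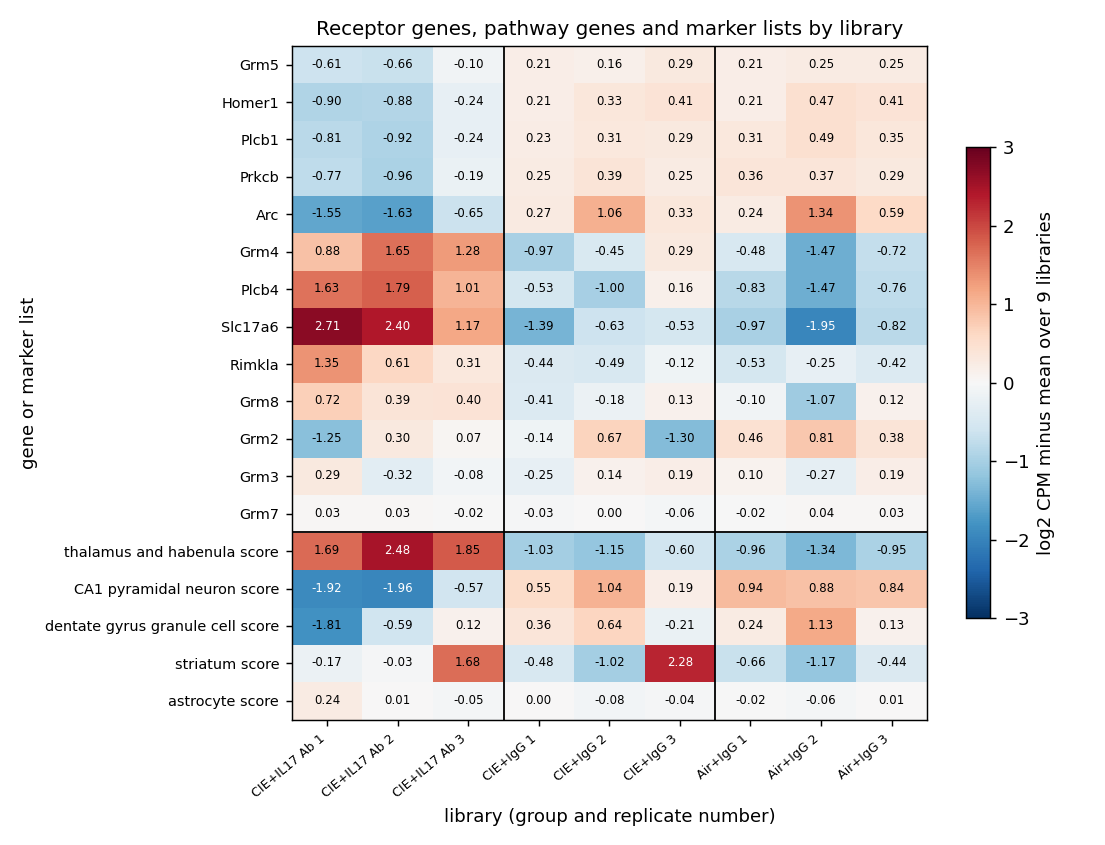
Colour and printed values give log2 CPM minus its mean over the 9 libraries for receptor genes and named pathway genes that passed against CIE+IgG (above the line), and list scores of marker genes (below it), by library. Grm5 shares its signs with Homer1, Plcb1, Prkcb and Arc in every library, and Grm4 is highest where the thalamus and habenula score is highest, at 2.48 in CIE+IL17 Ab replicate 2.

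Between CIE+IgG and Air+IgG genes with the smallest p of their role list included Kcnj9 (log2 fold change -0.45), Cav1 (-0.29), Rgs7 (-0.18), Ptpn5 (0.55) and Slc7a11 (-0.88), each with an adjusted p of 1. Slc7a11, the cystine and glutamate exchanger whose glutamate reaches group II receptors outside the synapse, had 77.5, 58.6 and 73.3 CPM in CIE+IgG and 102, 158 and 126 CPM in Air+IgG, with no overlap.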

How the data were processed

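Per the labels' protocols, stranded libraries of polyadenylated RNA were made. The authors deposited expected counts per gene, not scaled, made with RSEM 1.3.0 and STAR 2.5.1a on GRCm38, per the submitters' processing notes. Such estimated counts share out reads that match several genes. No source used here names the annotation release or strand setting. Symbols, coordinates and lengths came from GENCODE M21, which matched 14628 of 14779 identifiers. Counts were rounded. Genes passing edgeR's filterByExpr (minimum count 10) were tested with edgeR 4.0.16 in R 4.3.3 (TMM, quasi-likelihood F-test, robust=TRUE), all 9 libraries in 1 fit, with Benjamini-Hochberg adjustment over 14696 genes and a threshold of 0.05. The fit was tested on simulated data. A standard error is the log2 fold change divided by the square root of F. Log2 CPM used a prior count of 2. Groups follow the sample titles, and the design text gives 3 mice per group. No 2 libraries were identical. Transcripts for sequences were chosen by APPRIS rank, then coding length. Alternatives used DESeq2 1.42.0, limma 3.58.1, other scaling, filters, blocks and left-out libraries. The receptor genes, role lists and marker lists were chosen with earlier results of these data known. All receptor genes, the called genes of each role list (or its smallest p) and the 3 genes most like each receptor are named, except some genes not reported here.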

Additional observations from a re-analysis of the deposited data

How the results depend on the processing

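Depth does not limit the receptor genes, whose lowest count was 69. Directions of Grm4, Grm5 and Grm8 in both antibody comparisons held under all alternatives. Leaving out 1 library gave 0 to 1 receptor genes, 0 to 23 role genes and 0 to 1313 genes in all against CIE+IgG, 0 to 2, 0 to 34 and 0 to 2305 for CIE+IL17 Ab against Air+IgG, and 0 of each for CIE+IgG against Air+IgG.

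For CIE+IL17 Ab against CIE+IgG, counts of receptor genes, role genes and all genes (1, 8 and 468 as reported) were 2, 27 and 1481 in DESeq2, and 2, 14 and 776 with the label number block. Receptor genes were 2 in limma-voom and with CPM above 1 in all libraries. The counts were 0, 0 and 1 in label numbers 54 to 60 and 0, 0 and 1 with only the 2 groups compared, and 0 and 5 for receptor and role genes without the 2 libraries rich in Lars2. For CIE+IL17 Ab against Air+IgG (2, 26 and 1990) they were 0, 0 and 2 in label numbers 54 to 60, 1, 15 and 1192 with only the 2 groups, and 1, 9 and 1067 without the Lars2 libraries. DESeq2 called 6 genes between CIE+IgG and Air+IgG. The cause of these moves was not tested; 3 settings use fewer libraries.

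With a replicate block the counts were 0, 0 and 14 against CIE+IgG, and 2, 8 and 571 for CIE+IL17 Ab against Air+IgG. Same-numbered libraries deviated together with r between -0.27 and 0.25, so the numbers were not taken as pairs.

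Near 0, signs turned. Grm2 against CIE+IgG was 0.07 in limma-voom, 0.25 without the Lars2 libraries and -0.46 to 0.47 without 1 library. Grm3 was 0.16 and 0.18 in label numbers 54 to 60 in the antibody comparisons. Between CIE+IgG and Air+IgG, Grm3 and Grm8 were -0.11 and -0.15 without the Lars2 libraries. Without 1 library, Grm3 was -0.24 to 0.07, -0.22 to 0.09 and -0.11 to 0.14 in the 3 comparisons, Grm5 was -0.05 to 0.02 and Grm8 -0.16 to 0.36 between CIE+IgG and Air+IgG, and Grm7 was -0.03 to 0.00 for CIE+IL17 Ab against Air+IgG. The Lars2 setting and the longest-transcript length were added after the data were seen.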

Other observations

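Grm7 was among the steadiest genes of the table. Its CPM had a coefficient of variation of 2.41% over the 9 libraries, where counting error of its reads gives 2.93%, and 3 of 14696 tested genes had a smaller ratio of highest to lowest CPM than its 1.07. The median gene had a ratio of 1.64, Grm3 one of 1.53, Grm5 1.94, Grm8 3.48, Grm2 4.36 and Grm4 8.91. Within the same libraries the thalamus and habenula score ran from -1.34 to 2.48.

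The genes most like the other receptors in log2 CPM over the 9 libraries were named by Pearson's r, as a description. For Grm4 they were Cit, the citron kinase (0.992), Tdrd9 (0.986) and Aldh9a1, an aldehyde dehydrogenase (0.985). Cit had 250, 626 and 402 CPM in CIE+IL17 Ab, 63.9, 89.8 and 153 CPM in CIE+IgG, and 86.8, 44.9 and 87.6 CPM in Air+IgG, in the same order of libraries as Grm4 within the first 2 groups. For Grm2 they were Hivep3 (0.972), Fam205c (0.943) and Fam131b (0.939), for Grm8 Frmd3 (0.979), 9330182L06Rik (0.978) and Ttll1 (0.976), and for Grm3 Nutf2 (0.942), Ptprt (0.928) and Dazap2 (0.916). For Grm7 they were Olfr1564 (0.966), a gene of 0.559 to 2.02 CPM, Hnrnpa3 (0.921) and Il1rapl1 (0.896), but the spread of Grm7 was below its counting error, so these values show no likeness beyond counting noise. After group means were taken out, r of these genes with their receptor ran between 0.829 and 0.991. All were picked for the highest r of all tested genes over these same 9 libraries. High values before and after thus follow in part from the picking, and do not show a likeness by themselves. Among the 15 pairs of receptors r ran between -0.80 for Grm4 with Grm5 and 0.85 for Grm4 with Grm8, and these pairs had 0.04 and 0.64 after group means were taken out. The highest r after group means were taken out was 0.81, for Grm3 with Grm8, which had 0.47 before.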
